A study of Mus musculus with 20 samples.

Results

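The constitutive proteasome subunits are the genes Psma1 to Psma7, Psmb1 to Psmb7, Psmc1 to Psmc6 and Psmd1 to Psmd14. The rule takes them by name and uses no measured value, although the set itself was picked with earlier results of these data known. All 34 of these genes were measured, among 18193 genes with a probe set of their own on the array. Each gene was read from its brightest probe set, the one with the highest mean log2 value over the 20 arrays.

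The series measured liver RNA of mice on Affymetrix Mouse 430 2.0 arrays, with 1 array per liver and 5 individual livers in each of 4 groups. The groups were Scd1-/- mice on the very low fat diet TD03045 of Harlan Teklad (VLF), Scd1-/- mice on chow, wild-type Scd1+/+ mice on VLF and wild-type mice on chow. Scd1 encodes the main liver stearoyl-CoA desaturase, which makes monounsaturated fatty acids, and the study looked for changes found in Scd1-/- livers on VLF. No age, sex, allele design or diet length could be stated, since the sources used here do not give them.

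The proteasome is the protease that degrades proteins tagged with ubiquitin. Its barrel, the 20S core, stacks rings of alpha subunits, which form the gate, and rings of beta subunits, of which Psmb5, Psmb6 and Psmb7 carry the active sites. The 19S cap holds a ring of ATPases, the Psmc subunits, which unfold the substrate, and the Psmd subunits, which bind ubiquitin, remove it or hold the cap together. When proteasome activity falls short, the transcription factor NRF1 (Nfe2l1) is known to raise subunit genes together through antioxidant response elements in their promoters, and the related NRF2 (Nfe2l2) acts on some of the same genes in mouse liver under oxidative stress.

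The promoters of 4 members are shown because Psmd8 had the largest change of the set, and Psmb5, Psmb6 and Psmd12 were the called members whose promoter held the core of an antioxidant response element. The sequences are RefSeq's for mouse build GRCm38.p6 and run 5′ to 3′ along the gene, from 250 bases before the gene's start to 50 bases after it. Capitals mark a match to TGACNNNGC, the antioxidant response element core, read on either strand. None of the 4 held CCAAT, the other motif searched. The Psmd8 window is chr7:29180624-29180923 on the minus strand, the Psmb5 window chr14:54617946-54618245 on the minus strand, the Psmb6 window chr11:70525107-70525406 on the plus strand and the Psmd12 window chr11:107479278-107479577 on the plus strand.
Psmd8: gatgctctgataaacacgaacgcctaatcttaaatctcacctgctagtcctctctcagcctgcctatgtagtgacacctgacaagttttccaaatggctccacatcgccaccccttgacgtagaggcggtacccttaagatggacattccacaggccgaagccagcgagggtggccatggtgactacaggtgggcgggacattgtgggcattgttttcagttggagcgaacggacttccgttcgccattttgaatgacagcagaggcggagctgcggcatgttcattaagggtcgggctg
Psmb5: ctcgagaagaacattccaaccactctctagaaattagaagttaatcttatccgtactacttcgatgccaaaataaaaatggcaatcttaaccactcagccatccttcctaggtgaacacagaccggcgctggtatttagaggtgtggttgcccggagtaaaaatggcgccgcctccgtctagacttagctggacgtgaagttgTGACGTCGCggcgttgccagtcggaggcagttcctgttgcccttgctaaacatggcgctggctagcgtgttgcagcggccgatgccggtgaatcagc
Psmb6: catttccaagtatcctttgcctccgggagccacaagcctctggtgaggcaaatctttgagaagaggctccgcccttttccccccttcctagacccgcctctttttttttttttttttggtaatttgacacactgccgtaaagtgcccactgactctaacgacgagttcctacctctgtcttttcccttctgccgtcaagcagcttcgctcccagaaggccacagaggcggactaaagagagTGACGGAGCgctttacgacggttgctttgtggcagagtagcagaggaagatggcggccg
Psmd12: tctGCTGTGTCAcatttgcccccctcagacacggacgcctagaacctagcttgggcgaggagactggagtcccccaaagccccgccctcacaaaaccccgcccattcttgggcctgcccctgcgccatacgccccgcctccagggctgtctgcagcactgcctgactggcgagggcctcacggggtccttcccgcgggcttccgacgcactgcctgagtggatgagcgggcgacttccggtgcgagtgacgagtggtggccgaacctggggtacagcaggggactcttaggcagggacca

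Promoter entries were matched by symbol for 28 of the 34 members. TGACNNNGC was found on either strand in 5 of these 28 members (17.9%), against 14.0% of the 27025 genes with a promoter of that length. The 5 were Psmb5, Psmb6, Psmd9, Psmd12 and Psmc6, and 3 of them were called up in Scd1-/- VLF livers over wild-type VLF livers. CCAAT was found in 11 of the 28 members (39.3%), against 41.1% of all genes, and its matches did not overlap those of the other motif. The shares in the members were thus close to those of all genes, and Psmd8 and Psmc4, the members with the largest changes, held neither motif in this window. A match describes the letters and is not shown to be a binding site.

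Before the comparisons, the arrays were checked against their labels. Scd1 averaged 31.6 ± 3.99 and 46.1 ± 11.6 in Scd1-/- livers on VLF and chow, against 18223 ± 1442 and 8685 ± 1625 in wild-type livers on VLF and chow (normalized intensity, SD, n = 5 each), so every genotype label matched. All 6 measured hepatocyte markers were present, and their summed intensity ran between 86720 and 91790 in Scd1-/- VLF livers and between 91030 and 93700 in wild-type VLF livers. Of the 6, 0 rose and 2 fell over wild-type VLF: Apob changed by -0.40 ± 0.06 and Hnf4a by -0.31 ± 0.08 in log2, both without overlap. On hybridization controls neither was called, at -0.13 and -0.0846. Replicate 3 of wild-type VLF stood apart in Xist, the RNA that coats the inactive X chromosome: its brightest probe set read 16, the floor, there and at least 1233 in the other 19 livers. The Y-linked gene Eif2s3y lay at the floor in all 20 livers. Results that rest on that liver are given without it as well.

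In Scd1-/- VLF livers most subunit genes were higher than in wild-type VLF livers, with called members in each of the 4 role groups of the particle. By limma, with p-values adjusted over 45037 probe sets and a call at an adjusted p under 0.05, 26 of the 34 members rose and 0 fell, which left 8 without a call. Among all 18193 genes 19.2% were called up and 23% down. Among the 6605 genes at least as bright as the dimmest member, 29.6% were called up and 36% down. The members' log2 changes ran from -0.03 to 1.67 with a median of 0.26, a factor of 1.2, beside a median of -0.02 over all genes. Another scaling, centred on the spiked-in hybridization controls, gave 33 members up, a median of 0.57 over the members and one of 0.10 over all genes. In 16 members the 5 Scd1-/- VLF livers lay above all 5 wild-type VLF livers without overlap, and in 0 below, against 14.6% of all genes above and 15.5% below. All 5 Scd1-/- VLF livers were above all 15 other livers for 10 members, namely Psma6, Psma7, Psmb4, Psmb5, Psmc4, Psmd2, Psmd8, Psmd10, Psmd11 and Psmd14, against 9.39% of all genes.

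These livers were bulk tissue, in which fewer cells of a type and less RNA per cell cannot be told apart. Macrophage markers moved with the same contrast: 8 of 8 rose in Scd1-/- VLF livers, with a summed intensity of 13640 to 17440, against 3981 to 4748 in wild-type VLF livers, and Cd68 changed by 2.32 ± 0.13 and Gpnmb by 3.93 ± 0.18 in log2. The 3 measured neutrophil markers and the 4 measured proliferation markers also rose. Of 8 stellate cell and fibroblast markers 6 rose and 1 fell, Lrat, at -0.51 in log2. The ratio of 3′ to 5′ signal of beta-actin, a sign of RNA integrity and labelling, averaged 1.82 ± 0.114 in Scd1-/- VLF livers and 2.19 ± 0.198 in wild-type VLF livers (SD, n = 5 each). The part of any of these, or of the lower Apob and Hnf4a, in the subunit changes was not tested.

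**Figure D1:**
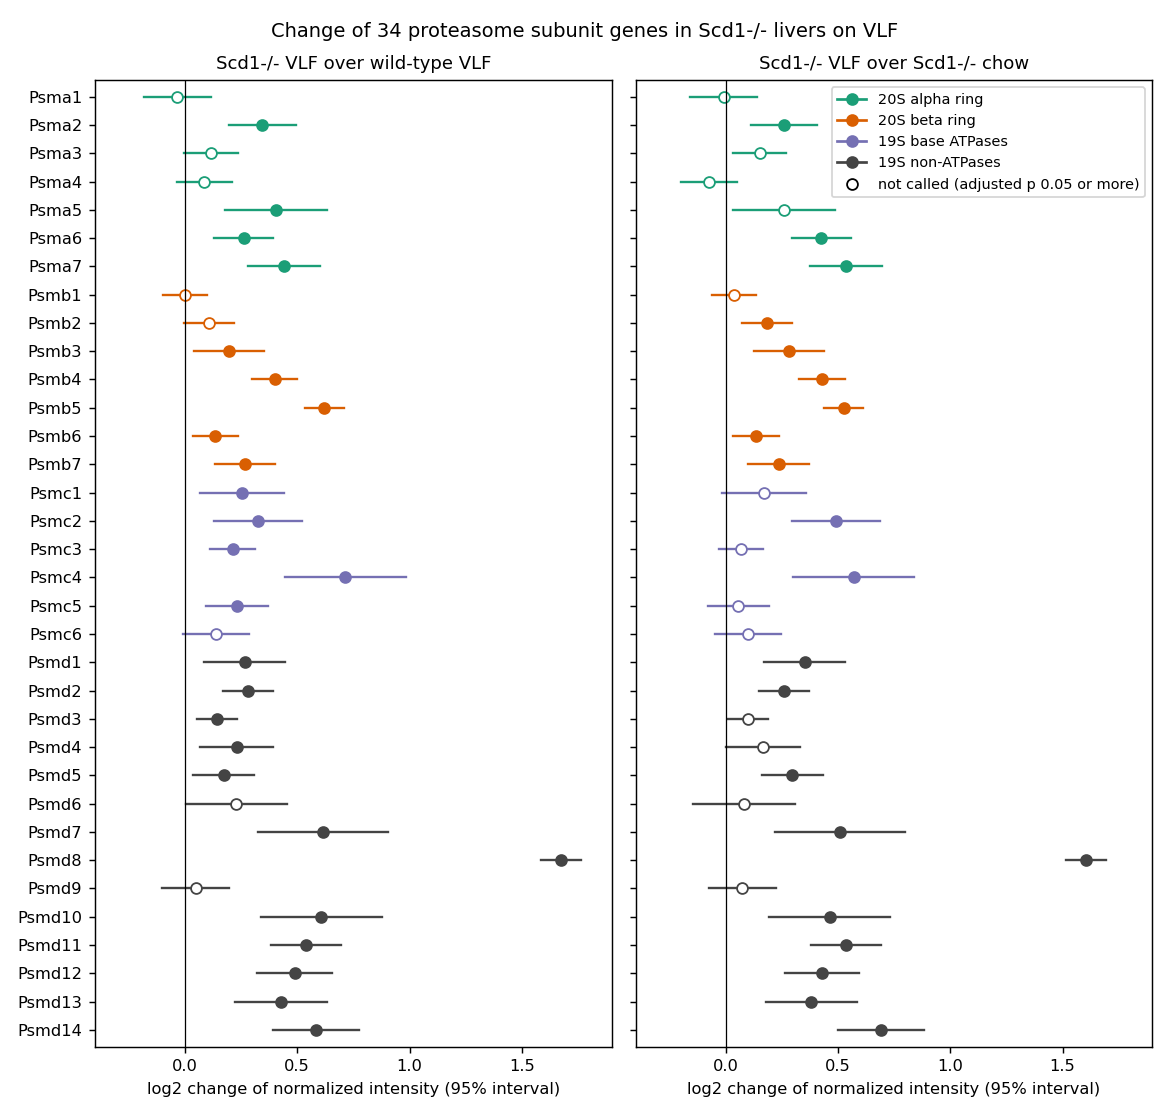
Log2 change of each of the 34 members with its 95% interval from limma, in Scd1-/- VLF livers over wild-type VLF livers (left) and over Scd1-/- chow livers (right); filled points passed an adjusted p of 0.05 and colours mark the role of the subunit. Nearly all points lie right of 0 in both panels, and Psmd8, at 1.67 and 1.6, stands apart from the next largest values of 0.71 and 0.69.

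Of the alpha subunits, which line up as the outer rings and gate of the core, 4 of 7 rose over wild-type VLF (Psma2, Psma5, Psma6 and Psma7), with a median log2 change of 0.26 over all 7. Psma7 measured 1477, 1069, 1386, 1155 and 1315 in the 5 Scd1-/- VLF livers and 889, 911, 936, 1013 and 938 in the wild-type VLF livers (normalized intensity). Every Scd1-/- VLF liver was above every wild-type VLF liver, replicate 2 by little, and the chow livers lay between 814 and 947 in Scd1-/- and between 802 and 952 in wild-type mice. The Psma7 log2 change was 0.44 ± 0.08 (estimate ± standard error, limma adjusted p = 0.000146). Psma5 measured 1523, 1109, 1662, 1707 and 1593 in Scd1-/- VLF livers and 1025, 1075, 1105, 1439 and 1066 in wild-type VLF livers. Its groups overlapped, since replicate 2 of Scd1-/- VLF was low and replicate 4 of wild-type VLF high, and its log2 change was 0.41 ± 0.11 (limma adjusted p = 0.0063). Psma2 changed by 0.35 ± 0.07 and Psma6 by 0.26 ± 0.06 in log2, the second read from a probe set of a kind that Affymetrix marks as able to bind related transcripts.

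Psma1, Psma3 and Psma4 were not called. Psma1 averaged 767 ± 85.2 in Scd1-/- VLF livers and 783 ± 66.9 in wild-type VLF livers (SD, n = 5 each). Psma3 averaged 3349 ± 212 in Scd1-/- VLF livers and 3089 ± 253 in wild-type VLF livers. Psma4 averaged 1291 ± 103 in Scd1-/- VLF livers and 1215 ± 72.9 in wild-type VLF livers. Psma1 has no settled sign, since its log2 change was -0.03 as reported, 0.12 with arrays set to a common median and 0.31 on hybridization controls. The 95% intervals in log2 ran from -0.18 to 0.12 for Psma1, from -0.00 to 0.24 for Psma3 and from -0.04 to 0.21 for Psma4, so changes as large as that of Psma7 lay outside all 3.

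Of the beta subunits 5 of 7 rose (Psmb3 to Psmb7), with a median log2 change of 0.20 over all 7. Psmb5, which carries the chymotrypsin-like site, measured 1914, 1803, 1916, 1807 and 1904 in Scd1-/- VLF livers and 1255, 1190.3, 1187, 1272 and 1171 in wild-type VLF livers. The Scd1-/- VLF livers formed a tight cluster far above the others. In wild-type chow livers Psmb5 lay between 1252 and 1412. The log2 change was 0.62 ± 0.04, a factor of 1.54 (limma adjusted p = 1.39e-09). Psmb4, a structural beta subunit, measured 3192, 2869, 3259, 2869 and 3156 in Scd1-/- VLF livers and 2309, 2351, 2209, 2509 and 2251 in wild-type VLF livers. These groups did not overlap, and the chow livers lay between 2118 and 2462 in Scd1-/- and between 2338 and 2354 in wild-type mice. The log2 change was 0.40 ± 0.05 (limma adjusted p = 2.68e-06).

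The other active-site subunits changed less in these data. Psmb7, the trypsin-like subunit, changed by 0.27 ± 0.06 and Psmb6, the caspase-like subunit, by 0.14 ± 0.05 in log2 (limma adjusted p = 0.00303 and 0.0374). The difference between these changes and that of Psmb5 was not tested. Psmb3, a structural subunit, changed by 0.20 ± 0.07 with an adjusted p of 0.0492 by limma, just inside the threshold.

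Psmb1, a structural subunit, had the smallest change of all members. It measured 1498, 1555, 1448, 1295 and 1474 in Scd1-/- VLF livers and 1509, 1415, 1440, 1417 and 1485 in wild-type VLF livers. The groups overlapped almost wholly, and the 95% interval of the log2 change ran from -0.10 to 0.10. Psmb2 was not called either, at 857 ± 56.6 in Scd1-/- VLF livers and 795 ± 47.6 in wild-type VLF livers (SD, n = 5 each).

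Of the ATPases of the cap, 5 of 6 rose, all but Psmc6, with a median log2 change of 0.24. Psmc4 measured 1058, 745, 951, 874 and 939 in Scd1-/- VLF livers and 614, 477, 514, 668 and 513 in wild-type VLF livers. The groups did not overlap, although both spread widely, and the chow livers lay between 482 and 729 in Scd1-/- and between 510 and 706 in wild-type mice. The log2 change was 0.71 ± 0.13, a factor of 1.64 (limma adjusted p = 0.000222). Psmc2 measured 1733, 1483, 2100.3, 2149 and 2110 in Scd1-/- VLF livers and 1565, 1662, 1409, 1588 and 1362 in wild-type VLF livers. Replicate 2 of Scd1-/- VLF fell inside the wild-type range, and the log2 change was 0.33 ± 0.09 (limma adjusted p = 0.0105). Its probe set is of the kind able to bind related transcripts, and a second Psmc2 probe set without that mark changed by 0.36 ± 0.08. Psmc6 averaged 759 ± 90.2 in Scd1-/- VLF livers and 687 ± 34.6 in wild-type VLF livers (SD, n = 5 each), with a log2 change of 0.14 ± 0.07 that was not called.

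Of the non-ATPase subunits of the cap 12 of 14 rose, with a median log2 change of 0.35, and they included Psmd8, the member with the largest change. In the lid, the part that carries the deubiquitinase, 7 of 8 rose, with a median of 0.51. Psmd8, a lid subunit, measured 4046, 4055, 4194, 3867 and 4180 in Scd1-/- VLF livers and 1289, 1274, 1254, 1318 and 1242 in wild-type VLF livers. In wild-type chow livers it measured 1374, 1318, 1296, 1303 and 1158. No liver lay between 1395 and 3867 in any of the 4 groups, and the log2 change was 1.67 ± 0.04, a factor of 3.19 (limma adjusted p = 5.38e-15). The array carries a single probe set for Psmd8, so this value rests on that probe set alone, as for 15 of the 34 members.

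Psmd7, a lid subunit and the inactive partner of the deubiquitinase, measured 352, 288, 395, 391 and 384 in Scd1-/- VLF livers and 243, 220.4, 213, 287 and 218 in wild-type VLF livers. The lowest Scd1-/- VLF liver and the highest wild-type VLF liver almost touched, and the log2 change was 0.62 ± 0.14 (limma adjusted p = 0.00166). Psmd14, the deubiquitinase itself, changed by 0.58 ± 0.09, Psmd11 by 0.54 ± 0.07, Psmd12 by 0.49 ± 0.08 and Psmd13 by 0.43 ± 0.10 in log2, and all of these were called without overlap of the groups. Psmd11 was read from a probe set shared between transcripts, and 3 other Psmd11 probe sets rose by 0.26 to 0.36. Psmd3 changed by 0.14 ± 0.04, and Psmd6 was not called, at 1125 ± 198 in Scd1-/- VLF livers and 951 ± 84.7 in wild-type VLF livers (SD, n = 5 each).

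The scaffold subunits of the base, Psmd1 and Psmd2, and the ubiquitin receptor Psmd4 rose in 3 of 3 cases, by 0.23 to 0.28 in log2. Psmd5, Psmd9 and Psmd10 are chaperones that help to assemble the base and leave the finished particle. Psmd10, also called gankyrin, changed by 0.61 ± 0.13 and Psmd5 by 0.17 ± 0.06, while Psmd9 was not called, at 349 ± 19.1 in Scd1-/- VLF livers and 338 ± 30.1 in wild-type VLF livers (SD, n = 5 each).

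**Figure D2:**
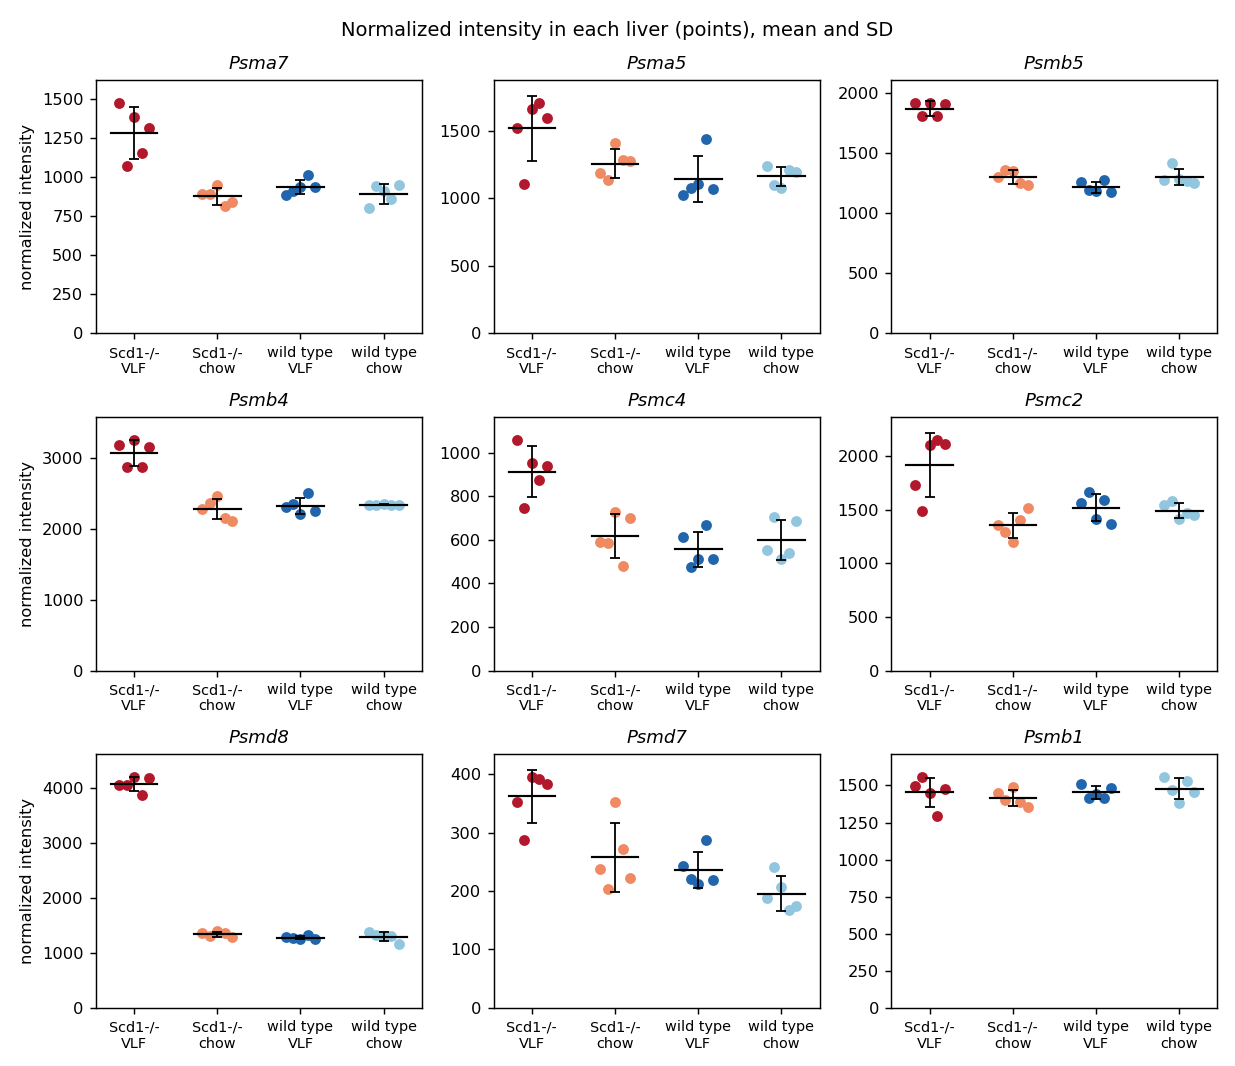
Normalized intensity of 9 members in each of the 20 livers, on linear axes that start at 0; points are livers, lines the group mean and bars the SD (n = 5). Psmd8 shows 5 Scd1-/- VLF livers between 3867 and 4194 with all others at 1395 or below, while Psmb1 shows 4 groups at one level.

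Probe sets of the same gene did not always move together. The members had 72 probe sets, and 38 besides the brightest lay in 19 members. Of these 38, 12 were called up and 4 down by limma. Psmd13 was contradicted by its own dimmer probe sets: the brightest rose by 0.43 and a second by 0.36, but 2 others fell by 0.98 and 0.38 in log2. A dimmer probe set of Psmb1 changed by -0.33 and one of Psmd9 by -0.40, both called, where the brightest was not called.

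The rise was present in each Scd1-/- VLF liver but not to the same extent. The median of the 34 members, relative to the wild-type chow mean, was 0.32, 0.16, 0.41, 0.26 and 0.27 in log2 in the 5 Scd1-/- VLF livers. It lay between -0.07 and 0.11 in Scd1-/- chow livers, between -0.08 and 0.09 in wild-type VLF livers and between -0.04 and 0.06 in wild-type chow livers. Replicate 2 of Scd1-/- VLF was the lowest of its group, and the highest outside it were replicate 3 of Scd1-/- chow and replicate 4 of wild-type VLF. Without replicate 2 of Scd1-/- VLF 28 members rose over wild-type VLF, and without replicate 3 of it or without replicate 3 of wild-type VLF 20 rose in each case. Of the 26 calls, 20 held when any single liver was left out. The 6 that were lost in some cases were Psmb3, Psmb6, Psmc1, Psmd1, Psmd4 and Psmd5, with adjusted p-values by limma of up to 0.133; replicate 3 of Scd1-/- VLF and replicate 3 of wild-type VLF were among the livers that decided each of them. Psmb3 and Psmb6 also lost the call when arrays were set to a common median without quantile normalization. Psma3, Psmc6 and Psmd6 were called when replicate 2 of Scd1-/- VLF was left out.

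**Figure D3:**
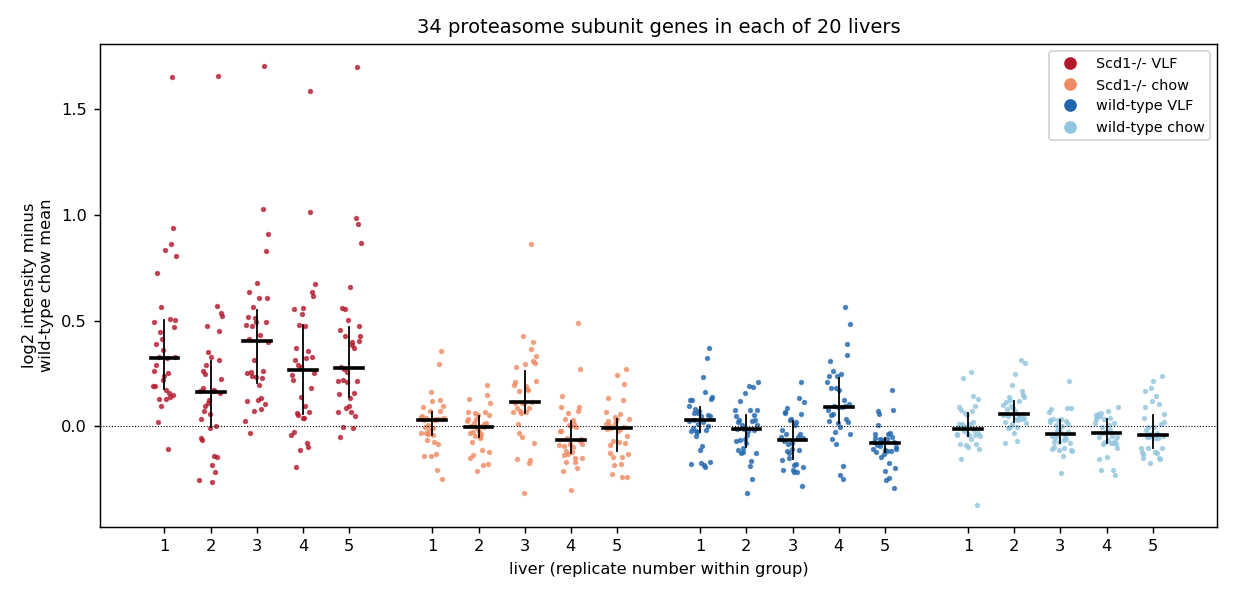
Log2 intensity of the 34 members minus each gene's wild-type chow mean, in each of the 20 livers; points are genes, thick bars the median and thin bars the interquartile range. The medians of the 5 Scd1-/- VLF livers, 0.16 to 0.41, lie above those of all 15 others, which end at 0.11.

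On the same genotype, VLF against chow gave a similar picture. Over Scd1-/- chow livers 21 of the 34 members rose in Scd1-/- VLF livers and 0 fell by limma, which left 13 without a call. Arrays set to a common median alone gave 15 up, and centring on hybridization controls gave 33. The members' median was 0.26 as reported and 0.58 on hybridization controls, where the median of all genes was also raised, to 0.27. Of all genes 17.1% were called up and 17.7% down. Among the 6605 genes at least as bright as the dimmest member, 27.3% were called up and 32.2% down. The groups did not overlap in 13 members, all higher, where 12.3% of all genes were higher and 13% lower without overlap. This comparison shares the Scd1-/- VLF livers with the previous one, so the sets of calls are not independent. In both, 20 members rose, among them Psmb4 to Psmb7, Psmc2, Psmc4 and Psmd8. The share of all genes called up in both was not counted, so the 20 cannot be set against it. Psmb2 was called only here and Psma5, Psmc1, Psmc3, Psmc5, Psmd3 and Psmd4 only over wild-type VLF, but whether these changes differ between the comparisons was not tested. Of the 21 calls, that of Psmb6 was lost in 7 of the 10 fits that left out 1 liver, with an adjusted p by limma of up to 0.131, and the other 20 held.

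Psmd8 measured 1352, 1303, 1395, 1356 and 1286 in Scd1-/- chow livers, all far below the Scd1-/- VLF livers, and its log2 change was 1.6 ± 0.04 (limma adjusted p = 1.52e-14). Psmb5 measured 1301, 1356, 1352, 1248 and 1235 in Scd1-/- chow livers, again without overlap, and changed by 0.53 ± 0.04. Psmd14 changed by 0.69 ± 0.09, Psmc4 by 0.57 ± 0.13, Psma7 by 0.54 ± 0.08 and Psmd11 by 0.53 ± 0.07 in log2. Psmd7, with a value of 352 in replicate 3 of Scd1-/- chow, overlapped between the groups and changed by 0.51 ± 0.14 (limma adjusted p = 0.00835). Of the ATPases 2 of 6 were called, Psmc2 and Psmc4. The beta-actin ratio averaged 1.82 ± 0.114 in Scd1-/- VLF livers and 2.25 ± 0.124 in Scd1-/- chow livers, and 7 of 8 macrophage markers rose, with a summed intensity of 13640 to 17440 against 4709 to 6392. Their part in these changes was not tested.

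Genotype on chow and diet in wild-type mice gave at most 1 call each. In Scd1-/- chow livers over wild-type chow livers 0 of the 34 members passed limma's threshold. An unadjusted p under 0.05 by limma was found for 4, of which Psmd7 and Psmd10 were higher and Psmd3 and Psmd11 lower. The share of all genes under that unadjusted threshold was not counted, so the 4 cannot be set against it. Of all genes 1.23% were called up and 1.71% down, and 2.46% were higher and 3.68% lower without overlap. These called shares are unstable: the 224 genes up and 312 down became 15 and 10 without replicate 1 of wild-type chow and 381 and 649 without replicate 2 of Scd1-/- chow. Leaving out any other liver of the comparison except replicate 5 of Scd1-/- chow also moved one of these counts by more than 1.5 times. The compared groups alone gave 6 and 5, and hybridization controls 1 and 2. Arrays set to a common median alone gave 1261 and 234, and 1 member, Psmd8, was called up. The median there was 0.23 over the members and 0.02 over all genes, against 0.04 and 0 as reported. With quantile normalization, members' log2 changes ran from -0.16 to 0.38, with 95% intervals within 0.5 of 0 for 32 of them. Psmd3 was the closest to a call, at -0.15 ± 0.04 (limma adjusted p = 0.0561), and the only member whose groups did not overlap. In wild-type VLF livers over wild-type chow livers 0 members rose and 1 fell by limma. An unadjusted p under 0.05 by limma was found for 6, of which 1 was higher, again without a counted share of all genes. Of all genes 0.786% were called up and 0.781% down, and 1.85% were higher and 2.42% lower without overlap. The 143 genes up and 142 down became 59 and 68 without replicate 4 of wild-type VLF, and 71 and 78 without replicate 1 of it. They became 67 and 71 without replicate 1 of wild-type chow and 87 and 93 without replicate 2 of it. Hybridization controls gave 29 and 21, and a common median alone 118 and 57.

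The member that fell was Psmd3, a lid subunit. It measured 477, 476, 479, 455 and 481 in wild-type VLF livers and 569, 552, 505, 556 and 530.0 in wild-type chow livers. The groups did not overlap, and the log2 change was -0.19 ± 0.04 (limma adjusted p = 0.0318), but the call was lost in 7 of the 10 fits that left out 1 liver (replicates 1, 2, 3 and 4 of wild-type VLF and 1, 2 and 4 of wild-type chow), with an adjusted p of up to 0.101. Psmd4 also lay lower without overlap, at -0.20 ± 0.08, and was not called.

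The difference between the genotypes was then compared between the diets in a single term, the change of Scd1-/- over wild type on VLF minus that on chow. By limma 16 of the 34 members had a positive term and 0 a negative one, where 12.1% of all genes were called up and 12.1% down. Among the 6605 genes at least as bright as the dimmest member, 20.2% were called up and 25.3% down. Psmd8 had a term of 1.62 ± 0.06, Psmd11 of 0.70 ± 0.10, Psmc4 of 0.67 ± 0.18, Psmb5 of 0.62 ± 0.06 and Psmd14 of 0.52 ± 0.13 in log2 (limma adjusted p from 5.95e-12 to 0.0123). By role, the term was called in 2 of 7 alpha subunits, 4 of 7 beta subunits, 2 of 6 ATPases and 8 of 14 non-ATPases. Psmb3, Psmb6, Psmd2 and Psmd13 lost the call in 10 to 13 of the 20 fits that left out 1 liver, with adjusted p-values by limma of up to 0.0811, and the other 12 held. The count depended on how arrays were put on one scale. With arrays set to a common median without quantile normalization 4 members were called, beside 1698 of all 18193 genes up and 2120 down. The members' median there was 0.18. Centring on the spiked-in hybridization controls called 25 members, beside 3965 genes up and 618 down. That last scaling put the median of all genes at 0.29 in the interaction term, against 0 as reported, and the members' median at 0.57, against 0.27 as reported. The members called under all 3 scalings were Psmb4, Psmb5, Psmd8 and Psmd11.

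The inducible counterparts of the active-site subunits had no call upward. Psmb9, Psmb10 and Psmb8 replace Psmb6, Psmb7 and Psmb5 in the immunoproteasome, which interferon induces and which immune cells carry. Psmb9 measured 192, 209, 168, 146 and 191 in Scd1-/- VLF livers and 225, 273, 265, 247 and 290 in wild-type VLF livers. All Scd1-/- VLF livers were below all wild-type VLF livers, and the log2 change was -0.53 ± 0.11 (limma adjusted p = 0.00123). Psmb10 measured 471, 468, 446, 409 and 443 in Scd1-/- VLF livers and 454, 601, 572, 458 and 612 in wild-type VLF livers. The groups overlapped and the change was -0.26 ± 0.08 (limma adjusted p = 0.0211). This call was lost in 4 of the 10 fits that left out 1 liver (replicate 4 of Scd1-/- VLF and 2, 3 and 5 of wild-type VLF), with adjusted p up to 0.0672, and the value was 0.12 when arrays were centred on hybridization controls.

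Psmb8 changed by -0.08 ± 0.10 over wild-type VLF and was not called. Over Scd1-/- chow livers Psmb8, Psmb9 and Psmb10 fell by 0.35, 0.59 and 0.66 in log2 (limma adjusted p = 0.0169, 0.000468 and 4.19e-06). On hybridization controls the value for Psmb8 was 0.0782, so its direction there depends on the scaling. The interaction term was called for Psmb9 (-0.69 ± 0.16) and Psmb10 (-0.44 ± 0.12) and not for Psmb8 (-0.20 ± 0.15). Hybridization controls raised values in general. The all-gene medians there were 0.10 over wild-type VLF, 0.27 over Scd1-/- chow and 0.29 in the interaction. The size of the falls of Psmb9 and Psmb10 thus depends on the scaling too, and for Psmb10 over wild-type VLF the direction does as well. In the Scd1-/- VLF livers 8 of 8 macrophage markers had risen, as given above. Of 5 lymphocyte markers 0 rose and 2 fell, with a summed intensity of 302 to 363 in Scd1-/- VLF livers and 323 to 431 in wild-type VLF livers. Psmb11 and Psma8, the thymus and testis forms, had group means of 16.7 to 28.4, below the lowest array median of 32.2, and are not described further.

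**Figure D4:**
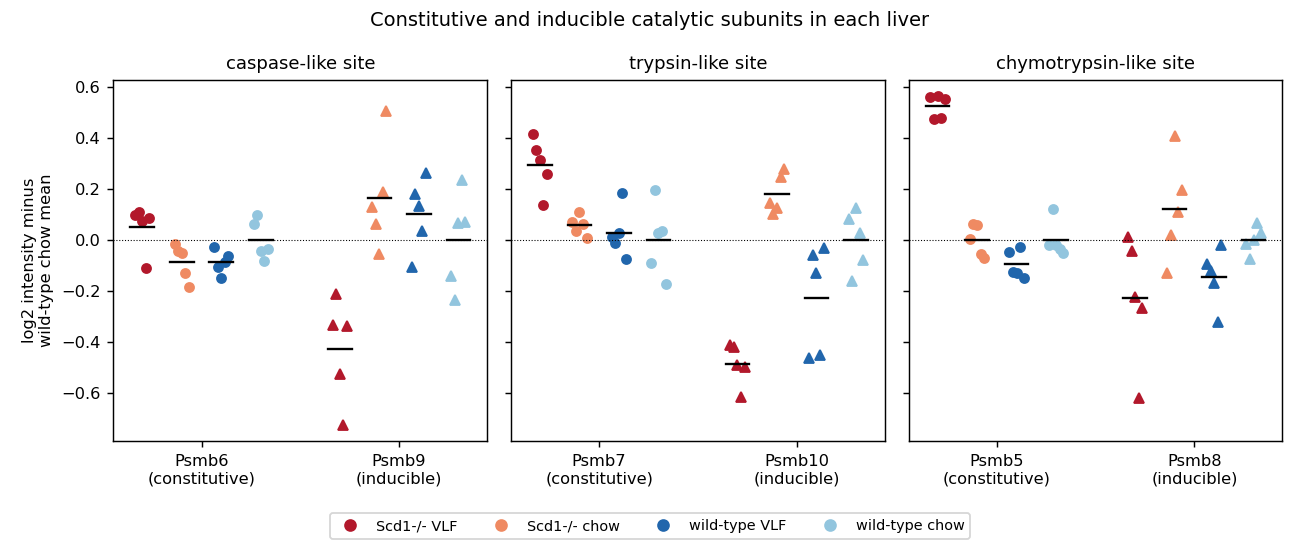
Log2 intensity of the constitutive (circles) and inducible (triangles) form of each catalytic subunit, minus that gene's wild-type chow mean, in each of the 20 livers, with black lines for group means. The Scd1-/- VLF livers lie above wild-type VLF on average in each constitutive form (0.14, 0.27 and 0.62 for Psmb6, Psmb7 and Psmb5), and below it in Psmb9 and Psmb10 (-0.53 and -0.26). The sign for Psmb10 turned when arrays were centred on hybridization controls.

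Around the particle, activators moved mildly with it. Of 4 measured activators and inhibitors 2 rose in Scd1-/- VLF livers over wild-type VLF livers, Psme1 by 0.26 ± 0.06 and Psme3 by 0.27 ± 0.07 in log2. Both encode subunits of the 11S caps that open the core without ubiquitin. Of the 5 chaperones that build the 20S core, 0 rose and 1 fell: Psmg1 changed by -0.52 ± 0.05 (limma adjusted p = 1.64e-07). Of 7 receptors and deubiquitinases that dock at the cap, 3 rose and 1 fell. Ubqln2, a shuttle that carries ubiquitinated proteins to the proteasome, changed by 1.94 ± 0.15, Rad23b, another shuttle, by 0.39 ± 0.07 and the deubiquitinase Uchl5 by 0.34 ± 0.09, while Ubqln1 changed by -0.26 ± 0.06, and by 0.0847 on hybridization controls.

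The genes that feed the proteasome rose in part. VCP is the ATPase that pulls ubiquitinated proteins out of membranes and complexes. Of 8 measured genes of VCP and its cofactors 7 rose and 1 fell, with a median log2 change of 0.54. Vcp changed by 0.56 ± 0.07, Ufd1 by 0.59 ± 0.10, Derl1, a channel protein of the endoplasmic reticulum, by 0.89 ± 0.12 and the ligase Syvn1 by 1.13 ± 0.20. Of 6 measured genes of ubiquitin and its conjugation 3 rose and 1 fell. Ube2k changed by 0.80 ± 0.09 and Ube2r2 by -0.63 ± 0.12. Ube2d3 and Ube2d2a rose by 0.80 and 0.60 on their brightest probe sets, but other probe sets fell, by up to 1.03 for Ube2d3 and by 0.23 for Ube2d2a, so neither has a settled direction.

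The transcription factors known for raising subunit genes were lower or mixed at the RNA level. Nfe2l1 changed by -0.40 ± 0.08 in Scd1-/- VLF livers over wild-type VLF livers (limma adjusted p = 0.000745). The size of this fall depends on the scaling. In the deposited values Nfe2l1 overlapped, at 243.06 to 357.09 in Scd1-/- VLF livers and 326.21 to 397.49 in wild-type VLF livers. Ngly1, the deglycosylase that activates the NRF1 protein, changed by -0.30 ± 0.06, and by 0.10 with arrays centred on hybridization controls. The small Maf partners rose: Maff changed by 1.15 ± 0.18 and Mafk by 0.43 ± 0.09. Nfe2l2 was not called on its brightest probe set (-0.28 ± 0.18), while a dim one, at the floor on 15 of 20 arrays, changed by 2.29. NRF2 targets rose in 8 of 9 measured cases, with a median of 1.93, among them Cbr3 (5.38 ± 0.16), Srxn1 (4.2 ± 0.18), Gsr (1.58 ± 0.05) and Txnrd1 (1.42 ± 0.10). RNA levels do not measure the activity of these factors.

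Autophagy genes, the other route of protein disposal, went both ways: 4 of 9 rose and 4 fell over wild-type VLF. Sqstm1, the receptor that carries ubiquitinated cargo, changed by 1.5 ± 0.16, whereas Gabarapl1 changed by -0.84 ± 0.09 and Ulk1, the initiating kinase, by -0.68 ± 0.08. Map1lc3b rose by 0.60 on its brightest probe set, but a second bright probe set read -0.16 and was not called. Of 3 measured ubiquitin ligases known from muscle atrophy Fbxo32 rose by 1.69 and Fbxo31 fell by 1.00 in log2. Fbxo30 fell by 0.67 on its brightest probe set and rose on 3 others.

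**Figure D5:**
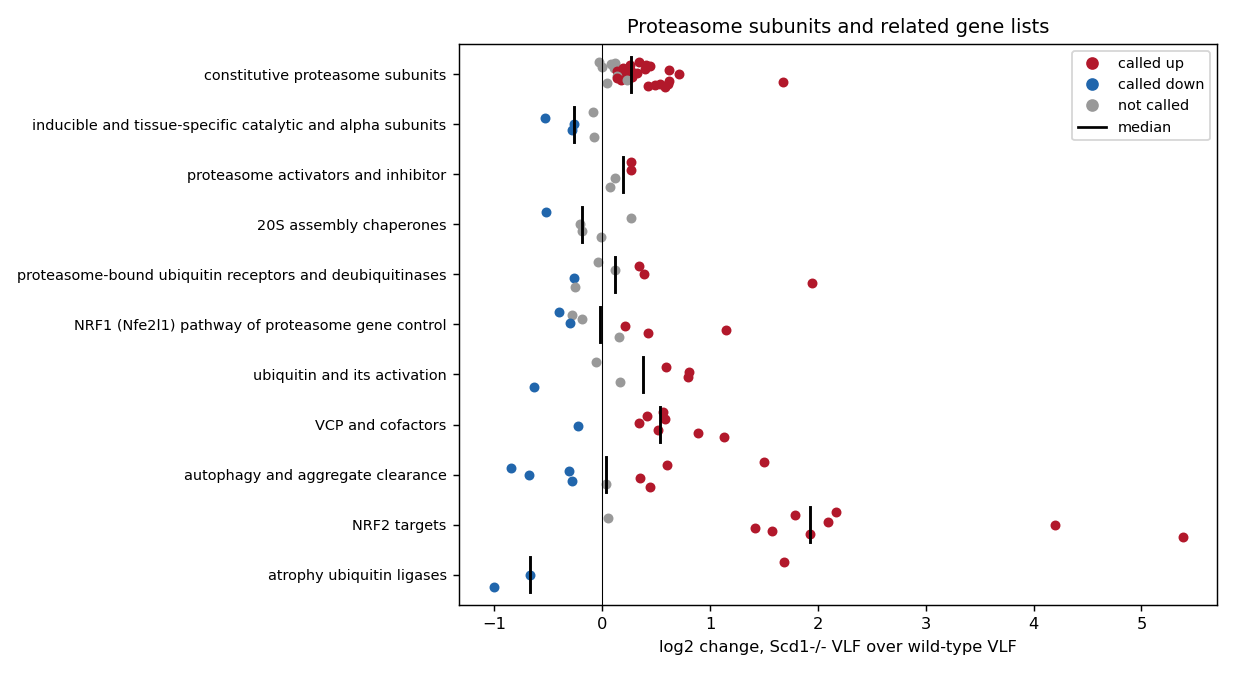
Log2 change in Scd1-/- VLF over wild-type VLF livers for the 34 members (top) and for the measured genes of 10 related lists; points are genes, coloured by limma's call, and black bars are list medians. The members' median is 0.26, and VCP with its cofactors has a median of 0.54. The 5 inducible and tissue-specific subunits have a median of -0.26, and they include Psmb11 and Psma8, which are dim.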

How the data were processed

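Total RNA from 20 flash-frozen livers was hybridized as biotinylated cRNA to 1 array each, per the labels' protocols. The deposited table holds intensity on a linear scale for 45101 probe sets, as its values show. The tools listed, per the submitters' processing notes, are MAS5 and RMA, and no source used here says which made the table. Deposited array medians ran from 32.2 to 36.6.

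Each array was set to the same median, values under 16 were raised to 16, and log2 values were quantile-normalized. After 64 control probe sets were left out, limma 3.58.1 in R 4.3.3 fitted a mean per group over all 20 arrays to 45037 probe sets, with Benjamini-Hochberg adjustment over all of them. A call is an adjusted p under 0.05, and ± on a log2 change is its standard error. Replicates are individual livers; 9083 probe sets at the floor on all arrays counted as unchanged. The probe table named 1 gene for 34945 probe sets, several for 932 and none for 9160. Folds of probe sets near the floor understate change. The number of arrays limits the precision.

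The members, lists and rules were chosen with earlier results of these data known. Per-liver values are given for the 2 members of each role group with the largest absolute log2 change between Scd1-/- VLF and wild-type VLF and for the smallest change, and means for members not called. In each related list the called genes with the smallest adjusted p, at most 4, are named, and Psmb8, Psmb9, Psmb10, Nfe2l1, Nfe2l2 and Scd1 always; others were named where probe sets or small counts called for it, after their values were seen. The split of the non-ATPases into lid, base and chaperones follows textbook structure and was added after the values were seen. Same-numbered livers deviated together with correlations of -0.257 to 0.286 over the 30 pairs, over 0.1 in 8, so the numbers were not taken to pair livers. No 2 arrays held identical values. The fit was tested on simulated data. Figures were drawn with matplotlib 3.10.9.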

Additional observations from a re-analysis of the deposited data

Results flagged for a closer look

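In 136 member-by-group sets of 5 livers, 12 (8.82%) held 1 liver far from the others by Dixon's criterion, where chance gives about 1 in 20. In Scd1-/- VLF these were replicate 2 for Psma5 (1109) and Psmc6 (606), both low, and replicate 4 for Psmb6 (1280.1). In Scd1-/- chow replicate 3 was high for Psmc6 (763) and Psmd4 (1265). In wild-type VLF replicate 4 stood apart for Psma5 (1439), Psmc3 (933) and Psmd3 (455), and replicate 3 for Psma4 (1090). In wild-type chow they were replicate 2 for Psmb5 (1412) and replicate 5 for Psmc3 (1004) and Psmd2 (965). All are normalized intensities.

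The genotype difference on VLF exceeded that on chow, by limma's test of the difference, in 16 of the 34 members. Of all genes 12.1% were called up in this test, and of genes at least as bright as the dimmest member 20.2%. Only 4 of the 16 members were called under all 3 scalings. The excess in log2 was 1.62 for Psmd8, 0.70 for Psmd11, 0.67 for Psmc4, 0.62 for Psmb5, 0.52 for Psmd14, 0.47 for Psmc2 and 0.47 for Psma7. It was 0.44 for Psmb4, 0.43 for Psmd12, 0.42 for Psmd13, 0.39 for Psma6, 0.37 for Psmd4, 0.32 for Psmb3, 0.30 for Psmd3, 0.23 for Psmd2 and 0.22 for Psmb6. For the inducible subunits it was -0.69 for Psmb9 and -0.44 for Psmb10. The value for Psmd13 turned negative when its probe sets were averaged, as given below.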

How the results depend on the processing

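With arrays set to a common median alone, the interaction term was called up in 4 members, beside 1698 genes up and 2120 down of all 18193. By genotype on chow 1 member was called up, beside 1261 genes up and 234 down. The members' median there was 0.23, against 0.04 as reported. With VLF in wild type 0 members fell. Over all genes that setting called 4159 up and 3110 down between Scd1-/- VLF and wild-type VLF, beside 3490 and 4176 as reported. Centring on hybridization controls called 5092 up and 957 down there, 6798 and 871 over Scd1-/- chow (3108 and 3215 as reported), and 3965 and 618 in the interaction (2206 and 2197 as reported). Of the members it called 33 up over Scd1-/- chow, 25 up in the interaction and 0 down with VLF in wild type. Psmd3's fall with VLF in wild type was also lost (0 members down) with a floor of 1, with the compared groups alone and with replicate number as a block. That replicate block, for numbers that do not pair livers, gave 24 members up over wild-type VLF, 23 over Scd1-/- chow and 14 in the interaction.

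Leaving out 1 liver at a time gave 20 to 28 members up over wild-type VLF, 20 to 25 over Scd1-/- chow and 12 to 19 in the interaction. It gave 0 to 1 down both for genotype on chow and for VLF in wild type. Leaving out replicate 3 of wild-type VLF gave 20, 12 in the interaction and 0 down with VLF in wild type. The mean over a gene's probe sets called 1 member down by genotype on chow. Probe sets whose names carry no mark for shared or alternative transcripts, which cover 29 members, called 2 down over wild-type VLF, 2 down over Scd1-/- chow, 1 down by genotype on chow, and 9 up and 1 down in the interaction.

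Signs turned in these cases. On hybridization controls, over wild-type VLF, Psmb1 read 0.26, Psmb10 0.12, Ubqln1 0.0847 and Ngly1 0.10 in log2, and over Scd1-/- chow Psma1 read 0.38 and Psmb8 0.0782. Averaged over probe sets, Psmd13 read -0.14 over wild-type VLF, -0.0388 over Scd1-/- chow and -0.0841 in the interaction, and Ube2d3 -0.25, Fbxo30 0.43 and Nfe2l2 1.01 over wild-type VLF. On unmarked probe sets Psmd13 read -0.98, -0.76 and -1.04 in the same 3 comparisons, Psma5 -0.21 and Psma6 -0.0388 over Scd1-/- chow, and Ube2d3 -0.83, Ube2d2a -0.23 and Map1lc3b -0.16 over wild-type VLF. The cause of these turns was not tested. Calls upward held under all 3 scalings for 24 of 26 members over wild-type VLF, 15 of 21 over Scd1-/- chow and 4 of 16 in the interaction. Dim probe sets near the floor limit what can be read for low genes.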
